A study of Mus musculus with 18 samples.

Results

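The myeloid C-type lectin receptors described here are 8 genes, Clec4d, Clec4e, Clec4n, Clec7a, Clec5a, Clec4a2, Clec12a and Clec10a. They were chosen by name as receptors of myeloid cells, and all 8 were found among the 18585 genes of the expression table. All 8 were among the 13809 genes that passed the filter on low values, a normalized count of at least 10 in at least 4 libraries. RNA came from whole forepaws of C57BL/6 mice, either wild type (WT) or lacking Sema3b (Sema3b-/-), which encodes a secreted class 3 semaphorin. The control groups held 4 libraries of each genotype and the arthritis groups 5 of each. The labels name neither the arthritis model nor the age of the mice, nor the part of Sema3b that was removed. Libraries were made by CEL-seq, which reads each RNA from a tag near its 3' end, and values are normalized counts, that is, reads divided by a size factor of the library.

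C-type lectin receptors are membrane proteins of phagocytes that bind sugars and lipids of microbes and of damaged cells. Activating members signal through a paired adaptor, FcRgamma (Fcer1g) or DAP12 (Tyrobp), or through a motif in their own tail, and these recruit the kinase Syk, which acts through Card9, Bcl10 and Malt1 on NF-kB. Inhibitory members carry a tail motif (ITIM) that recruits the phosphatases SHP-1 (Ptpn6) and SHP-2 (Ptpn11), and others mainly take up their ligands.

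In the GENCODE vM21 annotation (GRCm38, the assembly called mm10), 7 of the 8 genes lie on chromosome 6 and 1 on chromosome 11. Clec4a2 (chr6:123106428-123143999, plus strand), Clec4n (chr6:123229843-123247021, plus strand), Clec4d (chr6:123262111-123275265, plus strand) and Clec4e (chr6:123281789-123289870, minus strand) stand within 183.4 kb. Clec12a (chr6:129342691-129365303, plus strand) and Clec7a (chr6:129461591-129472779, minus strand) stand within 130.1 kb farther along the chromosome. Clec5a (chr6:40574894-40585821, minus strand) lies apart from both clusters, and Clec10a is at chr11:70156197-70170834, plus strand. All are annotated as protein coding except Clec7a, which this annotation lists as a polymorphic pseudogene with 2 protein-coding transcripts. The last 500 bases of the protein-coding transcripts held no run of 40 bases found in a transcript of another gene for Clec4d, Clec4e, Clec7a, Clec5a and Clec12a. Of such runs, 18.4% in Clec10a were shared with Mgl2, 11.1% in Clec4a2 with other genes (5.9% with Clec4a4) and 2.8% in Clec4n with Gm44147, so reads of these genes may be split between copies.

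Promoter sequence from RefSeq (GRCm38.p6) was matched for 6 of the 8 genes, and the 250 bases before the RefSeq start of each gene are shown for 3 of them. Clec4d and Clec4e are shown because they are neighbours with the 2 largest average fold changes of the 8 genes, and Clec12a because its window alone among the 6 held a searched motif, marked in capitals.
Clec4d (chr6:123261857-123262106, + strand): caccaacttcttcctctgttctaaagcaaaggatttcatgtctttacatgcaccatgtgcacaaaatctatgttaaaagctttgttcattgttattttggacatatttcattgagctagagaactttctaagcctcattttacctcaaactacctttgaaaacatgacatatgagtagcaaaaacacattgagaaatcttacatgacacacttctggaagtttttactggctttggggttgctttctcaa
Clec4e (chr6:123289872-123290121, - strand): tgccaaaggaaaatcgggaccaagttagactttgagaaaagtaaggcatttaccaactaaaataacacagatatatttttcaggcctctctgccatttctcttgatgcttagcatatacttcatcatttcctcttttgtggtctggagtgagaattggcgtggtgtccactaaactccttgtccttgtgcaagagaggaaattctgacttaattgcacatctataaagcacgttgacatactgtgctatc
Clec12a (chr6:129349994-129350243, + strand): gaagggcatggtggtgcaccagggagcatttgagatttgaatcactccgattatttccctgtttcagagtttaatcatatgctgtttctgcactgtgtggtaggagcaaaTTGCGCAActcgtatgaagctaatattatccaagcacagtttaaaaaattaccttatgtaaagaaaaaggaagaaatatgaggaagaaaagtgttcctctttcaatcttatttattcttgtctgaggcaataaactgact
The motifs searched on both strands were PU.1 (GAGGAAGT), C/EBP (TTGCGCAA and TTGCGAAA), AP-1 (TGACTCA and TGAGTCA) and NF-kB (GGGACTTTC, GGGAATTTC and GGGAAATTC), the usual targets of myeloid and inflammatory transcription factors. The only match was TTGCGCAA in Clec12a, 140 to 133 bases before the RefSeq start. That window lies inside the GENCODE span of Clec12a (chr6:129342691-129365303, plus strand), so the annotations place the start of this gene differently. Among 32851 promoter windows of the same length, 0.31% held a C/EBP motif, 2.44% the PU.1 motif, 4.46% an AP-1 motif and 0.7% an NF-kB motif.

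Total reads per library had a median of 7279063.5, a lowest value of 1732783 (replicate 1 of the Sema3b-/- controls) and a highest of 19464892 (replicate 2 of WT arthritis). Sema3b itself followed the labels, at 23.7 to 67.5 normalized counts in the 9 WT libraries and 0 to 7.2 (0 to 6 reads) in the 9 Sema3b-/- libraries. Sex, read from Xist and Y-linked genes, was unequal between groups: WT control was all female, WT arthritis held 1 female and 4 male libraries, Sema3b-/- control 2 of each, and Sema3b-/- arthritis 4 female and 1 male. Titles of all control libraries begin with MI and those of arthritis libraries with Joint (4 of 5 WT, 3 of 5 Sema3b-/-) or with a genotype and a number, so what these words stand for cannot be told apart from arthritis. Of the tested genes of skeletal muscle 4 of 10, and of epidermis 3 of 9, fell on average over both genotypes and none rose, where 10.9% of all genes were called lower. In the epidermis list, Dsg3 passed the filter on low values only with the arthritis libraries counted, and it was not called. In the count table, the column of Sema3b-/- arthritis replicate 5 carries its animal number with the letters Ct, while the sample's title places that animal in arthritis, and it was analysed under its title. Without it 6 of 8 receptors passed in Sema3b-/-, all but Clec12a and Clec10a, and 8 of 8 on average (limma). Over all genes, calls in either direction in Sema3b-/- then fell to 1083, from 1710 with all libraries. On average over both genotypes, 2579 to 3768 genes were called without any 1 library. The titles number the mice, but no label states that each library is a separate animal, so a p-value here reflects only how much these libraries vary. In whole-paw RNA, more cells of a type and more RNA per cell cannot be told apart.

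Averaged over both genotypes, all 8 receptors were higher in arthritis, from 1.89-fold for Clec10a to 11.4-fold for Clec4d, and each passed an adjusted p of 0.05 (limma over all genes, Benjamini-Hochberg). Of all 13809 genes, 12.6% were called higher in this comparison. The median log2 fold change of the 8 was 1.67, against -0.01 over all genes tested. The receptors that signal through FcRgamma, Clec4d, Clec4e and Clec4n, had the largest fold changes of the 8, followed by Clec7a. Taken by genotype, 4 of the 8 (Clec4d, Clec4e, Clec7a and Clec4a2) rose in WT, where 2.64% of all genes were called higher, and 8 of 8 rose in Sema3b-/-, where 6.84% were. Every arthritis library was above every control library for 5 of 8 receptors in WT (5.82% of all genes), for 6 of 8 in Sema3b-/- (7.13% of all genes) and for 3 of 8, Clec4d, Clec7a and Clec4a2, in both genotypes (2.18% of all genes). The number of genes called, in either direction, moved with single libraries: 582 in WT became 149 to 1112 when any 1 library was left out, and 1710 in Sema3b-/- became 975 to 1913.

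**Figure D1:**
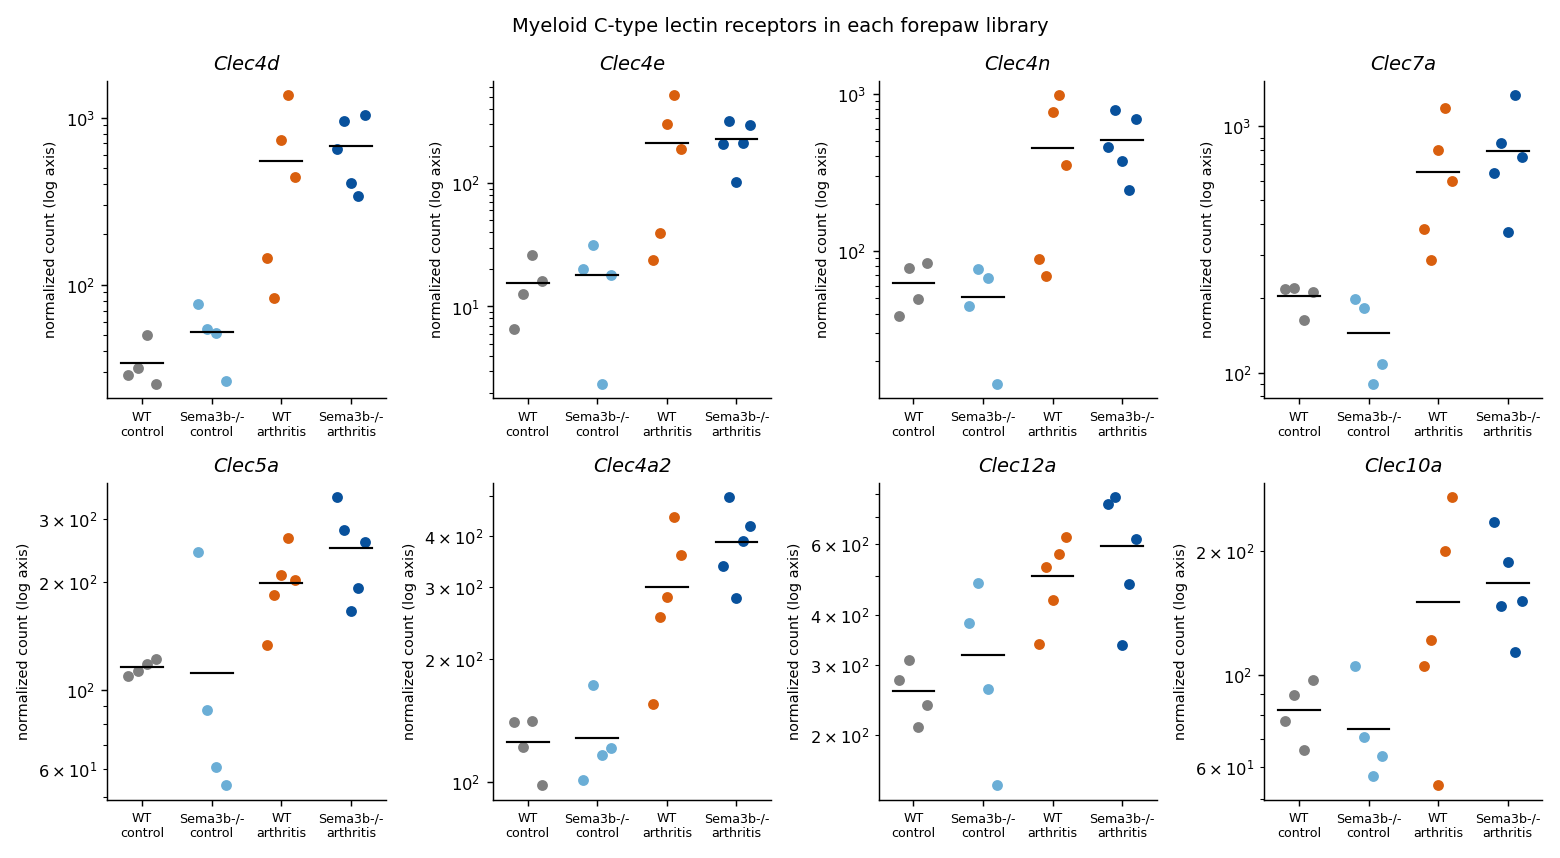
Normalized count (log axis) of each of the 8 receptors in each of the 18 libraries, by group; each point is 1 library and the bar is the group mean. For Clec4d, Clec4e and Clec4n, WT arthritis replicates 1 and 2 lie closest to the controls, while replicates 3, 4 and 5 are all above the lowest Sema3b-/- arthritis library.

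Clec4d (also called MCL or dectin-3) pairs with Clec4e in the recognition of mycobacterial glycolipids. In order of replicate number, here and below, it was at 28.7, 31.6, 49.7 and 25.6 normalized counts in WT control and at 145, 83.3, 733.5, 1357 and 439.9 in WT arthritis. In Sema3b-/- it was at 76.9, 54.2, 51.1 and 26.4 in control and 647, 951, 407, 337 and 1041 in arthritis. The groups did not overlap in either genotype, but WT arthritis replicates 1 and 2 were far below the other 3. The log2 fold change was 3.38 (SE 0.65, adjusted p = 0.0116) in WT and 3.63 (SE 0.65, adjusted p = 0.00353) in Sema3b-/-, and 3.51 (SE 0.46, adjusted p = 0.000163) on average by limma. The WT mean was 33.9 ± 10.8 (SD, n = 4) in control and 552 ± 519 (SD, n = 5) in arthritis, and the Sema3b-/- mean 52.1 ± 20.7 (SD, n = 4) and 677 ± 315 (SD, n = 5).

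Clec4e (Mincle) binds the mycobacterial cord factor and a nuclear protein released from dead cells. It was at 6.63, 12.6, 26.3 and 16.2 in WT control and 23.7, 39.3, 299, 511 and 189 in WT arthritis. In Sema3b-/- the values were 20.2, 31.3, 2.38 and 17.99 in control and 209, 316, 101.5, 212 and 296 in arthritis. The lowest of these, in Sema3b-/- control replicate 3, stands for 2 reads, fewer than the 3 reads that a count of 0 allows. The WT groups overlapped by 1 library, since arthritis replicate 1 lay below the highest control, and the Sema3b-/- groups did not. By limma, the log2 fold change was 3.06 (SE 0.83, adjusted p = 0.0482) in WT and 3.87 (SE 0.83, adjusted p = 0.00834) in Sema3b-/-, with an average of 3.47 (SE 0.59, adjusted p = 0.000806). The WT call was near the threshold and ended without any 1 of 15 of the 18 libraries, the exceptions being WT arthritis replicates 1 and 2 and replicate 3 of the Sema3b-/- controls (adjusted p up to 0.143).

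Clec4n (dectin-2) binds mannans of fungal cell walls. Its values were 38.7, 77.6, 49.7 and 84.4 in WT control and 88.7, 69.4, 768, 973 and 354 in WT arthritis. In Sema3b-/- they were 44.5, 76.5, 67.7 and 14.4 in control and 456, 783, 374, 246 and 694 in arthritis. WT arthritis replicates 1 and 2 were again near the controls, with replicate 2 below the highest of them, while all Sema3b-/- arthritis libraries were above every Sema3b-/- control. The log2 fold change was 2.20 (SE 0.73, adjusted p = 0.103) in WT, which did not pass, and 3.42 (SE 0.73, adjusted p = 0.00885) in Sema3b-/-, with an average of 2.81 (SE 0.52, adjusted p = 0.00166) by limma. Without WT arthritis replicate 1 or replicate 2 the WT difference passed (adjusted p down to 0.0275).

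Clec7a (dectin-1) is the receptor for beta-glucans and signals to Syk through a motif in its own tail, without a paired adaptor. It was at 219, 221, 164 and 213 in WT control and 381.5, 288, 802.5, 1189.9 and 599 in WT arthritis. The Sema3b-/- libraries were at 198, 184, 90.2 and 108 in control and 644, 859.5, 373, 1335 and 748 in arthritis. No arthritis library of either genotype fell within the control range. Clec7a rose by 1.4986 (SE 0.39, adjusted p = 0.0412) on the log2 scale in WT and by 2.40 (SE 0.39, adjusted p = 0.00176) in Sema3b-/- (limma), and by 1.95 (SE 0.28, adjusted p = 0.000226) on average. The WT call ended without any 1 of 9 libraries (adjusted p up to 0.123), namely each WT control library, replicates 3, 4 and 5 of WT arthritis, and 1 and 5 of the arthritic Sema3b-/- mice.

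Clec5a (MDL-1) is coupled to DAP12 and is an activating receptor of monocytes and neutrophils. WT control libraries were close together at 109, 113, 118 and 122, and WT arthritis libraries were at 133, 184, 209, 266 and 203. Sema3b-/- control libraries were at 243, 87.7, 60.6 and 54.0 and Sema3b-/- arthritis libraries at 346, 279.6, 166, 193 and 258. The WT groups did not overlap, and in Sema3b-/- control replicate 1, the shallowest library, was above 2 of the 5 arthritis libraries. The log2 fold change was 0.74 (SE 0.34, adjusted p = 0.21) in WT, which did not pass, and 1.38 (SE 0.34, adjusted p = 0.0141) in Sema3b-/- by limma, where the call ended without control replicate 3 (adjusted p = 0.0527). Without the shallow library the Sema3b-/- difference was 1.85.

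Clec4a2 (DCIR1) carries an ITIM and inhibits dendritic cells and other myeloid cells. It was at 140.4, 122, 141 and 98.1 in WT control and 155, 253, 284, 445 and 359 in WT arthritis. In Sema3b-/- control it was at 101.2, 172, 116 and 121, and in Sema3b-/- arthritis at 337, 497.5, 281, 389.5 and 424. The groups did not overlap in either genotype. The log2 fold change by limma was 1.18 (SE 0.25, adjusted p = 0.0143) in WT and 1.59 (SE 0.25, adjusted p = 0.00119) in Sema3b-/-, and its average, 1.38 (SE 0.18, adjusted p = 7.6e-05), had the lowest p of the 8 receptors. The WT call ended without WT control replicate 4 (adjusted p = 0.0528).

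Clec12a (MICL), the other ITIM receptor of the 8, binds uric acid crystals. WT control libraries were at 275, 308, 210.1 and 238 and WT arthritis libraries at 339, 526, 435, 568 and 626. Sema3b-/- control libraries were spread, at 380.3, 481, 261 and 149.9, and Sema3b-/- arthritis libraries were at 755, 786.5, 337, 477.5 and 619.6. The WT groups did not overlap, while 2 of 5 Sema3b-/- arthritis libraries lay below the highest control. By limma the log2 fold change was 0.93 (SE 0.30, adjusted p = 0.0866) in WT and 0.96 (SE 0.30, adjusted p = 0.0443) in Sema3b-/-. The Sema3b-/- difference passed and the WT difference did not, and the estimates differ by 0.03. The Sema3b-/- call ended without any 1 of 12 libraries, namely every WT control, both WT arthritis replicates 4 and 5, and of Sema3b-/- the controls 3 and 4 and all arthritis replicates other than 3 (adjusted p up to 0.138).

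Clec10a (MGL1) is an endocytic receptor for terminal galactose and N-acetylgalactosamine on macrophages and dendritic cells. It was at 77.4, 89.3, 65.7 and 97.2 in WT control and 105, 122, 54.0, 199.9 and 271 in WT arthritis, where replicate 3 was below all WT controls. In Sema3b-/- it was at 105, 71.0, 57.0 and 63.6 in control and 236, 147, 188, 114 and 151 in arthritis, without overlap. WT arthritis replicate 3, lowest for Clec10a, was among the 2 highest WT arthritis libraries for Clec4d, Clec4e, Clec4n, Clec7a and Clec5a. The log2 fold change was 0.67 (SE 0.35, adjusted p = 0.274) in WT and 1.16 (SE 0.35, adjusted p = 0.0367) in Sema3b-/- by limma, and the latter call ended without any 1 of 7 libraries, Sema3b-/- control replicates 2, 3 and 4 and Sema3b-/- arthritis replicates 1, 2, 3 and 5 (adjusted p up to 0.102).

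WT control libraries were all female and WT arthritis libraries mostly male. With sex as a term in the fit, none of the 8 receptors passed in WT, with Clec4d at a log2 fold change of 2.69 (limma adjusted p = 0.121) and Clec4n at 1.07 (adjusted p = 0.565). In the same fit 7 of 8 passed in Sema3b-/-, all but Clec10a (adjusted p = 0.0504), and all 8 passed on average over both genotypes. Of all genes, this fit called 0.543% higher in WT, 7.63% in Sema3b-/- and 10.8% on average. With arthritis libraries restricted to those titled Joint, 1 of 8 passed in WT (Clec4d), 3 of 8 in Sema3b-/- (Clec4d, Clec7a and Clec4a2) and 7 of 8 on average, all but Clec10a. The shares of all genes called higher were then 0.876%, 1.61% and 7.46%.

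**Figure D2:**
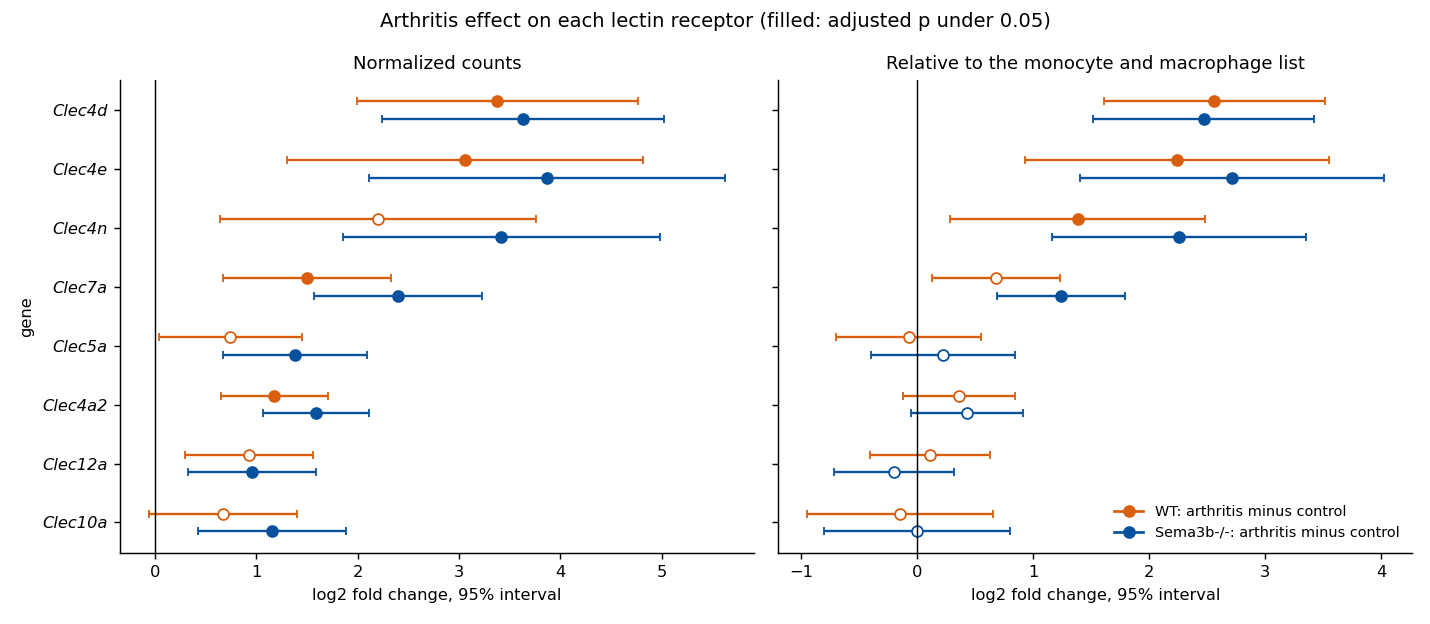
Log2 fold change of arthritis against control for each receptor in WT (orange) and Sema3b-/- (blue), as points with 95% intervals from limma, on normalized counts (left) and relative to the mean of the monocyte and macrophage list (right); filled points passed an adjusted p of 0.05. On the left all 16 estimates are above 0; on the right Clec4d, Clec4e, Clec4n and Clec7a stay above 0 and the intervals of Clec5a, Clec4a2, Clec12a and Clec10a include it.

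Loss of Sema3b changed none of the 8 receptors past the threshold in either state. In arthritis all 8 estimates were higher in Sema3b-/- than in WT, by 0.22 (Clec12a) to 0.81 (Clec4d) on the log2 scale, with adjusted p from 0.627 to 0.876 by limma. The 95% interval of the difference was -0.50 to 2.12 for Clec4d, -0.07 to 0.92 for Clec4a2 and -0.38 to 0.82 for Clec12a. None of the 8 had an unadjusted p under 0.05 here (the lowest was 0.0889, for Clec4a2), and edgeR and DESeq2 on the recovered reads called 0 of 8, while of all genes limma called 3 (0.0217%), edgeR 3 and DESeq2 94 (0.681%). In control mice 3 estimates were higher and 5 lower in Sema3b-/-, from -0.56 (Clec7a) to 0.56 (Clec4d), where 0.0145% of all genes were called. The 95% interval in control was -1.43 to 0.31 for Clec7a and -0.91 to 2.02 for Clec4d. In arthritis, 13 of 14 monocyte and macrophage genes (median 0.44) and 13 of 15 other C-type lectin receptors (0.42) were also higher in Sema3b-/-. The median of the 8 receptors was 0.38 there. Relative to the monocyte and macrophage list, Clec7a (-0.04), Clec5a (-0.08), Clec12a (-0.16) and Clec10a (-0.07) were lower. Clec4d (0.43), Clec4e (0.40), Clec4n (0.38) and Clec4a2 (0.04) were higher. WT arthritis was mostly male and Sema3b-/- arthritis mostly female.

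The test of whether the arthritis effect differed between genotypes, the interaction, called 0 of 8 receptors and 0.0% of all genes with limma (663 genes had an unadjusted p under 0.05, edgeR called 0 and DESeq2 6). All 8 interaction estimates were above 0, from 0.03 for Clec12a to 1.22 for Clec4n, the largest with a 95% interval of -0.99 to 3.43. So were 12 of 14 in the monocyte and macrophage list (median 0.38) and 13 of 15 other C-type lectin receptors (0.54). The median of the 8 was 0.56. No receptor had an unadjusted p under 0.05 for the interaction by limma, the lowest being 0.123 for Clec7a, and edgeR and DESeq2 also called 0 of 8. With edgeR or DESeq2 the estimates of Clec4d, Clec4e and Clec12a were below 0. The higher number of receptors called in Sema3b-/- than in WT is therefore not shown to be a difference between genotypes. Within WT arthritis Clec4d varied 16.3-fold, Clec4e 21.6-fold and Clec4n 14.0-fold between the highest and lowest library, against 3.09-fold, 3.11-fold and 3.19-fold in Sema3b-/- arthritis.

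Most markers of monocytes and macrophages also rose on average, where 12.6% of all genes were called higher. Of the 14 genes of that list 9 rose on average and none fell, with a median log2 fold change of 0.90, and Lyz2 (lysozyme, 1.74), Ccr2 (the chemokine receptor of inflammatory monocytes, 1.62) and Cd14 (1.79), named after their values were seen, were among those that rose. Csf1r, the receptor for the growth factor of macrophages, was at 0.10 (SE 0.12, adjusted p = 0.569) and did not pass. Cybb, a subunit of the phagocyte oxidase, was at 0.43 (SE 0.22, adjusted p = 0.151) and did not pass. The summed level of the list spanned 5648 to 6100.2 normalized counts in the WT controls and 5997 to 12520.1 with arthritis. The Sema3b-/- libraries spanned 4193 to 8906 without and 8544 to 13546 with arthritis. WT arthritis replicates 1 and 2, low for Clec4d, Clec4e and Clec4n, were also the lowest of their group for this list, at 5997 and 6352. No gene of the list was at 0 in any group, and several of its genes, such as Ptprc, Itgam and Itgb2, are also expressed by other leukocytes.

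To see how far the receptors moved with these markers, every gene was also expressed relative to the mean log2 level of the 14 genes in the same library, a comparison added after the data had been seen. On that scale most genes fell (median -1.01 on average over both genotypes), with 81.2% of all genes called lower and 1.04% called higher. Near the threshold, adjusted p-values are therefore little above unadjusted ones, such as 0.0327 against 0.0258 for Clec4a2 (limma). On average Clec4d was higher by 2.51 (SE 0.32, adjusted p = 1.02e-05), Clec4e by 2.47 (SE 0.44, adjusted p = 0.00015), Clec4n by 1.82 (SE 0.37, adjusted p = 0.000398) and Clec7a by 0.96 (SE 0.19, adjusted p = 0.000246) in this limma fit. Their unadjusted p-values were 1.65e-07, 2.22e-05, 0.0001 and 4.84e-05. Clec4a2 was higher by 0.39 (SE 0.16, adjusted p = 0.0327), a call that ended without any 1 of WT control replicates 2 and 4, Sema3b-/- control replicate 1, WT arthritis replicate 2 and Sema3b-/- arthritis replicate 2, and with sex as a term. Clec5a at 0.07 (SE 0.21, adjusted p = 0.749), Clec12a at -0.04 (SE 0.18, adjusted p = 0.816) and Clec10a at -0.08 (SE 0.27, adjusted p = 0.794) were not called, with 95% intervals of -0.37 to 0.51, -0.41 to 0.32 and -0.64 to 0.49.

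Taken by genotype, Clec4d, Clec4e and Clec4n were higher relative to the list in WT (0.384% of all genes), by 2.56, 2.24 and 1.38, and none of the 3 passed with sex as a term. With that term the fit called 52 of all genes in WT in either direction, against 4904 without it. The Clec4n call ended without any 1 of 12 libraries (the exceptions were WT arthritis 1 and 2 and, of Sema3b-/-, controls 3 and 4 and arthritis 2 and 4), and the Clec4e call without WT control replicate 1 or WT arthritis replicate 4. Clec7a was at 0.68 (SE 0.27, adjusted p = 0.051) there. In Sema3b-/- Clec4d, Clec4e, Clec4n and Clec7a were higher, by 2.47, 2.71, 2.26 and 1.24, where 0.992% of all genes were (limma, highest adjusted p of the 4 0.0018). The ratio of Clec4d and of Clec7a to the list was above every control library in 5 of 5 arthritis libraries of each genotype, as for 0.138% of all genes. With 13 neutrophil genes in place of the list, the average estimates of Clec4d, Clec4e, Clec4n and Clec7a were 2.68, 2.64, 1.99 and 1.12, given here without a call. That fit called 4015 genes in either direction on average, against 11355 relative to the monocyte and macrophage list. By genotype it called 1965 against 4904 in WT and 307 against 9952 in Sema3b-/-.

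**Figure D3:**
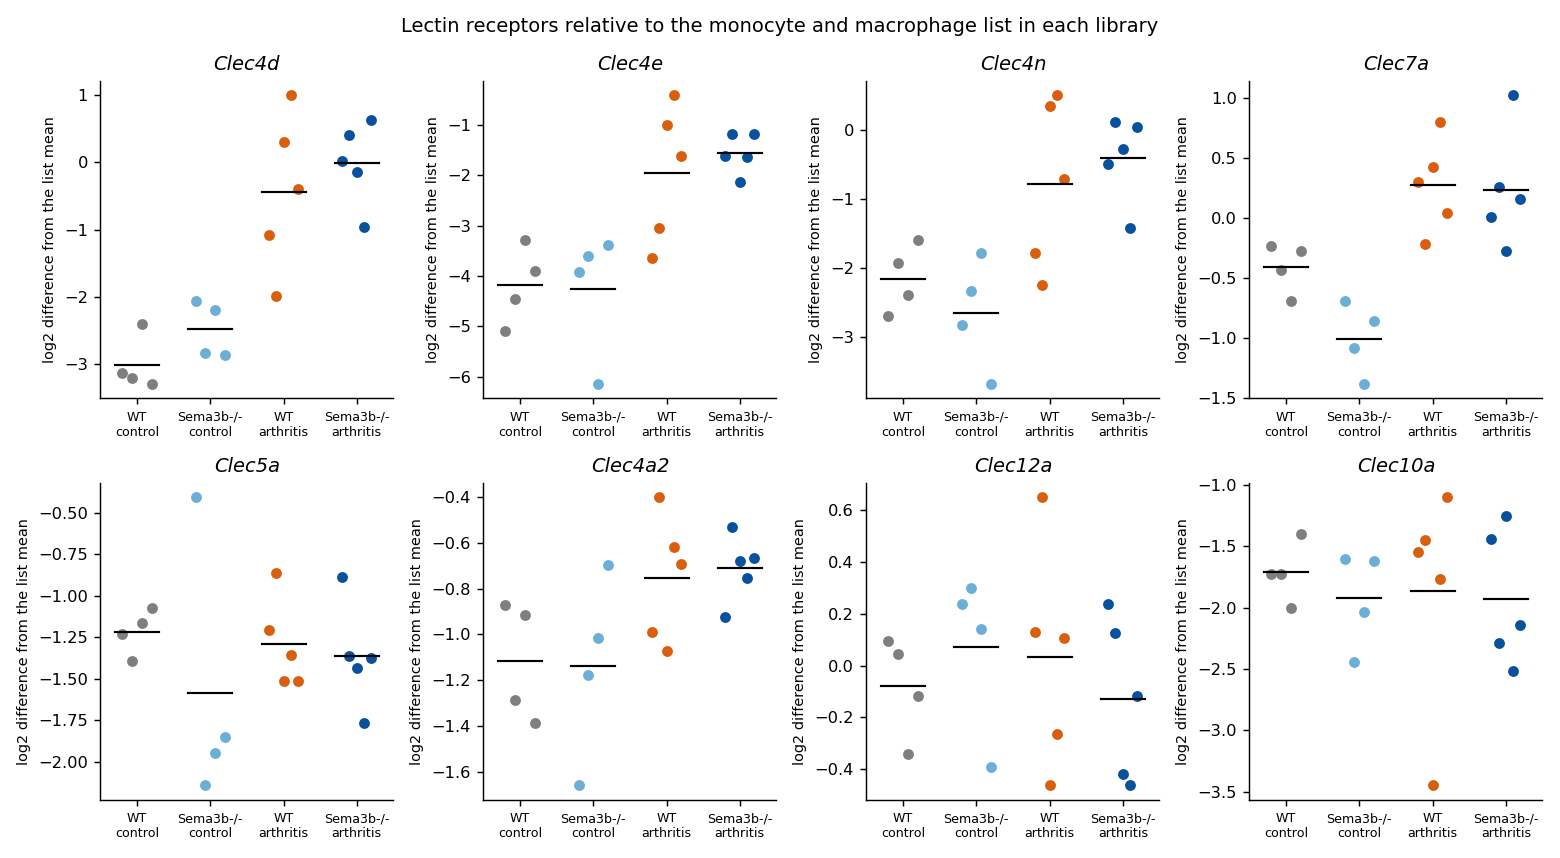
Log2 level (normalized count + 1) of each receptor minus the mean log2 level of the 14 monocyte and macrophage genes in the same library, with 1 point per library and a bar at the group mean. Clec4d and Clec7a stand above all controls of their genotype in every arthritis library, while Clec5a, Clec12a and Clec10a overlap between control and arthritis.

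Markers of other cells moved as follows on average over both genotypes, where 12.6% of all genes were called higher and 10.9% lower. Of 13 neutrophil genes 6 rose, among them S100a8 at 1.60 (SE 0.49, adjusted p = 0.0277) and S100a9 at 1.42 (SE 0.44, adjusted p = 0.0319). Neither of these passed within WT (limma adjusted p = 0.109 and 0.101) or within Sema3b-/- (0.274 and 0.347). Mmp9 (-0.68), Ngp (-0.65) and Ltf (-0.22), named for their direction, were below 0 on average without passing. WT arthritis replicate 1 had the lowest sum of the neutrophil list in any library, 8113 normalized counts. It spanned 9769 to 15062 in the WT controls and 8113 to 73487 with arthritis, and in Sema3b-/- 10524 to 49182 without and 13123 to 63495 with arthritis. WT arthritis replicate 2, low for Clec4d, Clec4e and Clec4n, had the highest of all, 73487. Of 8 genes of tissue-resident macrophages 3 rose, with Cbr2 at 0.66 (SE 0.13, adjusted p = 0.00183) and F13a1 at 0.49 (SE 0.20, adjusted p = 0.0778). Lyve1 (-0.80), Timd4 (-0.78) and Retnla (-0.77), named for their direction, were below 0 without passing. Of 8 dendritic cell genes 3 rose, with H2-Ab1 at 0.77 (SE 0.22, adjusted p = 0.0199) and Cd24a at -0.44 (SE 0.24, adjusted p = 0.191). In the dendritic cell list, Zbtb46 and Xcr1 passed the filter on low values only with the arthritis libraries counted, and neither was called. None of the 4 marrow progenitor genes, with Mpo at 0.32 and Elane at -0.08, or of the 4 tested T and NK cell genes (Cd4 -0.23, Nkg7 0.22) passed. Among mast cell genes 1 of 6, Kit, fell, and Cpa3 and Mcpt4 were at 0.51 and 0.49 without passing. Of 4 tested B cell genes 3 fell, with Cd79a at -1.84 (SE 0.41, adjusted p = 0.00475). The most abundant muscle and epidermis genes were at -1.11 (Tnnt3) and -1.37 (Atp2a1), which did not pass, and -2.39 (Krt1) and -2.56 (Krt10), which did. The muscle sum spanned 120029 to 158364 in WT control and 11622 to 202259 in WT arthritis, and in Sema3b-/- 118425 to 300194 and 11615 to 103898. WT arthritis replicates 1 and 2 had the highest muscle sums of their group, 175929 and 202259. In Sema3b-/- arthritis replicate 1 had the highest, and it was not the lowest for Clec4d, Clec4e or Clec4n. The epidermis sum spanned 59986 to 99146 in WT control and 2304 to 84539 in WT arthritis. The part of these shifts in the receptor differences, beyond the relative values above, was not tested.

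**Figure D4:**
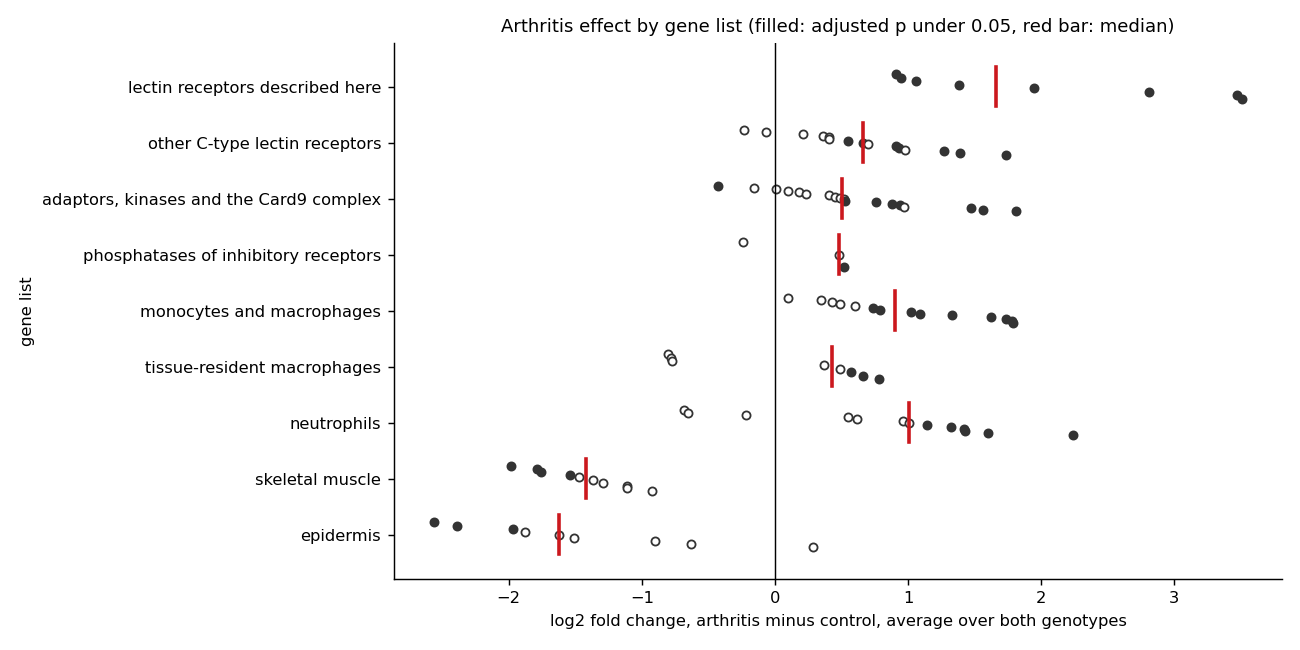
Log2 fold change of arthritis against control, averaged over both genotypes, for each tested gene of the 8 receptors and of 8 further lists, with 1 point per gene, filled where the adjusted p is under 0.05, and a red bar at the list median. The 8 receptors are all filled and above 0, with a median of 1.67. The lists of other lectin receptors, of adaptors and kinases and of epidermis hold genes that passed the filter on low values only with the arthritis libraries counted.

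Several signalling partners of the receptors also rose. Of 18 adaptors, kinases and members of the Card9 complex 7 rose and 1 fell on average, with a median of 0.50. Of all genes, 12.6% were called higher and 10.9% lower. Card9, which is in the median but was not called, passed the filter on low values only with the arthritis libraries counted. Fcer1g, the FcRgamma adaptor of Clec4d, Clec4e and Clec4n, was at 1775 ± 111 and 1302 ± 329 in WT and Sema3b-/- control and 4287 ± 1493 and 4316 ± 678 in WT and Sema3b-/- arthritis (SD, n = 4 and 5), and rose by 1.47 (SE 0.16, adjusted p = 2.8e-05) on average by limma. Tyrobp, the DAP12 adaptor of Clec5a, was at 583 ± 77.2 and 698 ± 297 in WT and Sema3b-/- control and 1889 ± 1074 and 2080.0 ± 588 in WT and Sema3b-/- arthritis (SD, n = 4 and 5), and rose by 1.56 (SE 0.28, adjusted p = 0.00136) on average. Hcst (DAP10, 0.94), the Src-family kinase Fgr (1.81), the exchange factor Vav1 (0.88) and Bcl10 (0.53) were among those that rose. Syk itself was at 0.18 (SE 0.22, adjusted p = 0.581), Card9 at 0.97 (SE 0.48, adjusted p = 0.147) and Malt1 at 0.49 (SE 0.21, adjusted p = 0.0904), and none of the 3, which are named as the core of the pathway after their values were seen, passed. Rela, an NF-kB subunit, fell, by 0.43 on the log2 scale (SE 0.09, adjusted p = 0.00282).

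Of the 3 phosphatases that act below ITIM receptors, Ptpn6 rose by 0.52 (SE 0.16, adjusted p = 0.0243) on average. Ptpn11 at -0.24 (SE 0.10, adjusted p = 0.0991) and Inpp5d (SHIP-1) at 0.48 (SE 0.19, adjusted p = 0.0753) did not pass. Among 16 genes known to be induced through Syk and Card9, 5 were too low to be tested. Of the 11 tested, 8 passed the filter on low values only with the arthritis libraries counted, which favours genes that are higher there, and neither a count nor a median of this list is given. Il1b, which encodes interleukin-1 beta, passed on control libraries alone and was at 21.5 ± 10.6 and 12.5 ± 7.11 in WT and Sema3b-/- control and 432 ± 420.4 and 374 ± 117 in WT and Sema3b-/- arthritis (SD, n = 4 and 5). It rose by 4.19 (SE 0.62, adjusted p = 0.000353) on average by limma. The chemokine gene Cxcl1, 1 of the 8, was at 8.82 ± 3.40 and 3.75 ± 3.35 in WT and Sema3b-/- control and 243 ± 318 and 200.3 ± 116 in WT and Sema3b-/- arthritis (SD, n = 4 and 5). Cxcl2, another of the 8, was at 2.78 ± 3.85 and 2.33 ± 1.63 in WT and Sema3b-/- control and 169.6 ± 186 and 172 ± 40.5 in WT and Sema3b-/- arthritis (SD, n = 4 and 5). Ptgs2, the inducible cyclooxygenase and also 1 of the 8, was at 0.991 ± 0.912 and 4.78 ± 2.94 in WT and Sema3b-/- control and 21.6 ± 18.3 and 14.9 ± 5.46 in WT and Sema3b-/- arthritis (SD, n = 4 and 5). Many other receptors induce these genes too, and their link to the lectin receptors was not tested.

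Some other C-type lectin receptors also rose on average, where 12.6% of all genes were called higher. Of 21 listed, 20 were in the table and 15 were tested, 7 rose and none fell, with a median of 0.66. Clec4b1 and Olr1 passed the filter on low values only with the arthritis libraries counted, which favours genes that are higher there. Both are in the median, and neither was called. Clec4a1 and Clec4a3, relatives of Clec4a2 in the same family, rose by 1.39 (SE 0.23, adjusted p = 0.000569) and 1.74 (SE 0.22, adjusted p = 7.33e-05) on average. Mrc1, the macrophage mannose receptor, was at 609 ± 45.7 and 545 ± 151 in WT and Sema3b-/- control and 977 ± 181 and 1240.3 ± 235 in WT and Sema3b-/- arthritis (SD, n = 4 and 5), and rose by 0.93 (SE 0.13, adjusted p = 0.000115). Cd209f, a relative of DC-SIGN, rose by 1.27 (SE 0.28, adjusted p = 0.0043). Mgl2, the galactose-type receptor most like Clec10a, was at -0.07 (SE 0.43, adjusted p = 0.919) and did not pass, although it shares part of its 3' end with Clec10a (named after its value was seen). Clec4a4, Clec4b2, Clec9a, Clec12b and Ly75 were below the filter.

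Deviations from the group means showed which receptors went together between libraries. Over the 18 libraries, which differ in depth and cell content, Clec4d and Clec4n had the highest correlation of the 28 pairs (Pearson r = 0.889, Spearman rho = 0.802), and Clec7a and Clec10a the lowest Pearson r (r = 0.053, rho = 0.158). Among the receptors, Clec4e was closest to Clec4d (r = 0.742, rho = 0.783) and to Clec7a (r = 0.740, rho = 0.653), and Clec5a and Clec12a were closest to each other (r = 0.666, rho = 0.668). Clec10a was at most at 0.416 with any other receptor. Many other genes were closer by Pearson r. Of 13808 genes ranked for Clec4e, Clec4d was in place 234 and Clec7a in place 239. Clec12a was in place 245 for Clec5a, and Clec4n in place 30 for Clec4d. Among all 13808 other tested genes, the most alike were Lgmn for Clec4d (r = 0.963), Rab8a for Clec4e (0.922), Eid1 for Clec4n (0.955) and Srgn for Clec7a (0.972). They were Eid2b for Clec5a (0.899), Igsf6 for Clec4a2 (0.918), Vav1 for Clec12a (0.9) and Cma1, a mast cell protease, for Clec10a (0.855). Igfbp4 was the next most alike for both Clec4d and Clec4n (r = 0.946 each), and Lyn, a kinase that phosphorylates ITIMs, was also among the 3 most alike for Clec12a (0.871). These correlations are descriptions over the same 18 libraries and carry no test.

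The authors' deposited table of comparisons gave the receptors the same directions in arthritis. Among the receptors, 5 of 8 passed an adjusted p of 0.05 in WT in the authors' deposited table (3.51% of genes with an adjusted p were called higher), where Clec4d was at 4.02 (adjusted p = 0.00617), Clec4e at 3.78 (adjusted p = 0.013) and Clec4n at 2.85 (adjusted p = 0.0231). The authors' deposited table called 6 of 8 in Sema3b-/- (3.87% of genes), all but Clec12a at 0.91 (adjusted p = 0.0895) and Clec10a at 1.21 (adjusted p = 0.0627). Its comparisons of genotypes called 0 of 8 (0.0108% of genes in arthritis and 0.0% in control), with Clec4a2 at 0.36 (adjusted p = 0.928) in arthritis in the authors' deposited table. There Clec4d was at 0.29, Clec4e at 0.09 and Clec4n at 0.18 in arthritis. The limma estimates of these genes were larger, at 0.81, 0.78 and 0.76.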

How the data were processed

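CEL-seq libraries of forepaw RNA were sequenced on a NextSeq500, per the labels, and reads were aligned with BWA to mm10, per the submitters' processing notes, which also name DESeq2 1.32. The deposited table holds a signal per gene and library, reads divided by a size factor; dividing by the value of 1 read gave whole reads (within 0.02 read) for 100% of values. The authors' deposited table of comparisons holds log2 fold changes and adjusted p-values. Total reads ran from 1732783 to 19464892, and 3 reads were worth at most 12.1 normalized counts; this floor covers counting error only.

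Genes with at least 10 in at least 4 libraries (13809 of 18585) were fitted as log2(value + 1) by limma 3.58.1 (R 4.3.3; trend, robust) over 4 group means, with Benjamini-Hochberg adjustment over all genes and a call at 0.05. Fold changes are on that scale, which understates the change of low genes. In a test on simulated data for WT arthritis against control (13809 genes), 94 of 100 genes changed by 2 on the log2 scale and 96 of 100 changed by 3 were recovered, with 10 false calls. The changed genes were drawn only from genes with higher means, so this recovery does not extend to low genes. Each gene was also drawn on its own, with the same change in every WT arthritis library. In the data, Clec4d, Clec4e and Clec4n were low in WT arthritis replicates 1 and 2, so the recovery may not hold for them. Among the receptors, Clec4n at 2.20 (SE 0.73) in WT was not called. Alternatives were edgeR 4.0.16 and DESeq2 1.42.0 on the recovered reads, other scaling, pseudocounts and filters, a replicate block, sex as a term, arthritis libraries titled Joint, and each library left out. The fit relative to the monocyte and macrophage list was added after the data had been seen. No 2 libraries of a group agreed within sampling noise (32 pairs). One Sema3b-/- control title repeats a replicate number and was numbered 4, and one column, headed with an animal number and Ct, was matched by that number to a title that gives arthritis.

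The receptors and lists were chosen with earlier results of these data known. Named genes are the 8 receptors, the 4 genes of each pathway list with the lowest p on average, adaptors, kinases and phosphatases that were called, the 2 most abundant genes of each cell type list, and the 3 genes most alike to each receptor. Some genes of these lists are not reported here by name.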

Additional observations from a re-analysis of the deposited data

Results flagged for a closer look

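Clec7a in WT control replicate 3 stood apart from its group, at 164.2 normalized counts against 213.2 to 221.1 in the other 3 libraries. The gap to the nearest library was 0.861 of the range of the group, above Dixon's critical value for 4 libraries. Of the 32 combinations of receptor and group examined, chance would mark about 1 in 20.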

How the results depend on the processing

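On average over both genotypes all 8 receptors passed under every alternative run except the restriction to arthritis libraries titled Joint (7 of 8), and without any 1 library (8 to 8). In WT the 4 called receptors became 1 with the replicate block, 0 with sex as a term and 1 with Joint titles, and 1 to 5 without 1 library; in Sema3b-/- the 8 became 3 with Joint titles and 5 to 8 without 1 library. Relative to the monocyte and macrophage list, the 3 called in WT became 1 with the replicate block, 0 with sex as a term and 1 with Joint titles (1 to 4 without 1 library), against 4 to 5 in Sema3b-/- and on average. Over all genes, the WT calls relative to the list (4904) became 1064, 52 and 1305 under the same 3 alternatives. The cause was not tested. Comparisons of genotypes and the interaction called 0 receptors throughout (0 to 0). Replicate numbers did not pair the libraries: correlations of 25 same-number pairs ran from -0.658 to 0.414, 7 were over 0.1, and 3 of 18 libraries were closest to their own number. Over all genes, WT calls (582) became 196 with the replicate block, 1279 with DESeq2, 133 with sex and 229 with Joint titles; Sema3b-/- calls (1710) became 1020 and 396 with the block and Joint titles, and average calls (3247) 1939 with Joint titles. Leaving out 1 library moved the WT calls by over 1.5 times for WT control replicates 1 to 4 (188, 227, 149 and 263) and WT arthritis replicates 2 to 5 (1112, 300, 189 and 285), and the Sema3b-/- calls for control replicate 3 (995) and arthritis replicates 2 and 5 (975 and 1083).

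Some estimates that were never called changed sign. Between control groups, Clec4e became 0.0478 with pseudocount 5, 0.26 with edgeR and 0.22 with DESeq2 (-0.42 to 0.66 without 1 library), Clec4n reached 0.0403 (from -0.74), Clec4a2 -0.25 and Clec12a -0.0445 with sex (-0.14 to 0.12 and -0.0515 to 0.51 without 1 library). For the interaction, edgeR and DESeq2 gave -0.27 and -0.30 for Clec4d, -0.17 and -0.13 for Clec4e and -0.0488 and -0.0492 for Clec12a, which was -0.17 with Joint titles; without 1 library Clec4d ran from -0.27 to 0.74 and Clec12a from -0.29 to 0.27. Relative to the list in WT, sex as a term gave 0.24 for Clec5a and 0.21 for Clec10a, and the neutrophil list -0.23 for Clec12a (without 1 library -0.0429 to 0.24 for Clec12a and -0.34 to 0.25 for Clec10a). In Sema3b-/- the neutrophil list gave 0.47 for Clec12a and 0.67 for Clec10a (-0.18 to 0.14 without 1 library). On average it gave 0.12 and 0.0898, sex gave 0.035 for Clec10a, and leaving out 1 library gave -0.02 to 0.27 for Clec5a, -0.12 to 0.018 for Clec12a and -0.17 to 0.12 for Clec10a.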
